A study of Mus musculus with 23 samples.

Results

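SnoRNA host genes are genes whose introns carry small nucleolar RNAs (snoRNAs). The 10 examined here, Gas5, Snhg1, Snhg3, Snhg4, Snhg5, Snhg6, Snhg7, Snhg8, Snhg11 and Snhg12, were chosen by name from 23369 gene names, with 1 row each, and all 10 passed the filter for testing. Their level did not differ detectably between samples labelled untreated and samples labelled tamoxifen-treated. Between replicate numbers 8 of the 10 were called by an F test, beside 62.8% of all genes tested. Without the filter 0 of the 10 were called. Gas5 and Snhg11 were more than 2-fold higher in replicate number 2 than in numbers 1 and 3, in both groups, as deposited. When samples were scaled to TPM, the log2 differences of number 2 from number 1 were 0.61 in Gas5 and 0.60 in Snhg11, and that of Snhg11 no longer passed the test (adjusted p = 0.0531).

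RNA was taken from Kdm2b fl/fl mouse embryonic stem cells (ESCs) of the line MS12 KDM2Bfl/fl, in which loxP sites flank the exon encoding most of the ZF-CxxC domain of KDM2B, the domain that binds nonmethylated CpG islands. All 6 RNA-seq samples, 3 untreated and 3 treated with 4-hydroxytamoxifen for 72 hr, carry this allele and a stably expressed tamoxifen-inducible Cre recombinase, and the cells were grown with LIF on feeder fibroblasts, from which they were separated overnight before use. The comparison asks what changes in expression once KDM2B can no longer bind CpG islands, and there is no tamoxifen-treated line without the floxed allele among the samples used here. The sample labels give the dose as 800 nM and the series text as 800 µM. Groups follow the sample labels. File names assign all 6 samples the other way round, and if they were right each treatment difference below would change sign at the same size and p.

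Values are FPKM, a read measure corrected for transcript length and library size, which can be compared between genes of different length. The FPKM of a sample summed to between 549379 and 1045707, and loci under 300 bp held 23.9% and 25.6% of that sum in the 2 samples of number 1, 67.7% and 61.6% in number 2, and 54.7% and 42.3% in number 3. Kdm2b itself was at 27.0, 21.5 and 27.7 FPKM in untreated replicates 1 to 3 and at 19.9, 21.9 and 25.0 in the tamoxifen replicates. A gene value also counts the exons that are kept, so it does not check the deletion. All 8 ESC markers were present in every sample, with Pou5f1 at 369 to 832 FPKM. Of the 10 markers of feeder fibroblasts, Col1a1 was the most abundant at 15.6 to 40.3 FPKM and Lum stayed at or below 0.202 FPKM, and none of the 10 was at 0 in all 6 samples.

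A host gene is transcribed by RNA polymerase II and spliced, and its snoRNAs are trimmed out of the excised introns. Box C/D snoRNAs guide 2′-O-methylation and box H/ACA snoRNAs guide pseudouridylation of ribosomal RNA and other RNAs. Many host transcripts open with a terminal oligopyrimidine (TOP) tract, the element found on messenger RNAs of ribosomal proteins and translation factors, and several spliced host RNAs, Gas5 among them, are degraded by nonsense-mediated decay when they are translated. A polyA+ library captures the spliced, polyadenylated host RNA, whereas a mature snoRNA carries no polyA tail.

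Grouped by the snoRNAs that lie inside them, Gas5, Snhg1, Snhg5 and Snhg6 are box C/D hosts, Snhg3, Snhg4, Snhg7, Snhg8 and Snhg11 are box H/ACA hosts, and Snhg12 holds both kinds. In the GENCODE annotation of mm9, Gas5 on chromosome 1 (162965297 to 162968668, plus strand) holds 9 box C/D snoRNAs, each in an intron of at least 1 of its 25 transcripts. Snhg1 on chromosome 19 (8797977 to 8800816, plus strand) holds 8, and 3 of these lie in an intron of at least 1 of its 2 transcripts. Snhg12 on chromosome 4 (131864593 to 131866939, plus strand) holds 4, and Snhg3 lies on the same chromosome from 131907848 to 131909601 on the minus strand with 2. Snhg11 on chromosome 2 (158201374 to 158211881, plus strand) is the longest locus, at 10508 bp, and is the single member annotated as protein coding. Snhg8 on chromosome 3 (123210470 to 123211254) is the shortest at 785 bp. GENCODE models of mm9 place Rcc1 on the same strand across Snhg3, and 6030422M02Rik on the opposite strand across Snhg6, so reads of Snhg3 cannot be told apart from those of Rcc1 by position alone, and the counting is not stated to use the strand. Among the deposited rows, made on refGene models, no row of Rcc1 or 6030422M02Rik overlapped that of Snhg3 or Snhg6. MicroRNA rows also lie inside Gas5 (Mir5117, 0 FPKM in all 6 samples) and Snhg4 (Mir1949, 4379 FPKM in untreated replicate 2 and 0 in the others).

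The snoRNAs whose rows the results below turn on are printed from the mm9 assembly over their GENCODE intervals, 5′ to 3′, with the sequence boxes in capitals. Capitals mark box C (TGATGA within the first 20 bases) and box D (CTGA within the last 15 bases) in box C/D snoRNAs, and ACA within the last 8 bases in box H/ACA snoRNAs.
Snord47 (in Gas5, chr1:162968213-162968289, plus strand): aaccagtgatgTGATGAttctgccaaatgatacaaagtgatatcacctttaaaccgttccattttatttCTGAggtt
Snord22 (in Snhg1, chr19:8800356-8800481, plus strand): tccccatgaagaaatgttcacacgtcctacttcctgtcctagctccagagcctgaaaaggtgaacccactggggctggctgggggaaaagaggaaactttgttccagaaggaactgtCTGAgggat
Snord87 (in Snhg6, chr1:9932544-9932630, minus strand): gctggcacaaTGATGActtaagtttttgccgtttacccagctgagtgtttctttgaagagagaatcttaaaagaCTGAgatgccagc
Snora61 (in Snhg12, chr4:131866155-131866284, plus strand): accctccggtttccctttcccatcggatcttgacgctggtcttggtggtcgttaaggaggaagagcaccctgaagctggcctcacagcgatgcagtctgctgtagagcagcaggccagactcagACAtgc
Snora16a (in Snhg12, chr4:131865380-131865515, plus strand): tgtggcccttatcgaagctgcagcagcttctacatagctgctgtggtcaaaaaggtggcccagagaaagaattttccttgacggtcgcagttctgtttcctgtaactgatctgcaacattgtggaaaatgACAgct
Snord22 holds box D but no exact box C in that window. Over all snoRNA rows of the tables that could be matched to the annotation, both boxes were found in 49 of 76 Snord sequences (64.5%) and on the opposite strand in 0.0%, and the ACA in 34 of 36 Snora sequences (94.4%) and on the opposite strand in 11.1%. A search of this kind is a description of the letters and not of a working site.

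The bases around the annotated transcription start are shown because host transcripts are known for a TOP tract, a run of pyrimidines that begins with C at the start of the RNA. Windows of 30 bases, 15 of them before the start, are taken from RefSeq on GRCm38.p6, with a run of at least 5 pyrimidines beginning with C within 10 bases of the start in capitals. Each run was counted from a C even where a T came directly before it, as in Snhg12, Snhg8 and Snhg5.
Gas5, downstream start (chr1:161035151-161035180, plus strand): agccgccatctcagCCTTTCggagctgtgc
Snhg12 (chr4:132308663-132308692, plus strand): ggccgttctcagtCCTTTCTCgcttcatcc
Snhg7 (chr2:26640230-26640259, minus strand): gtggagatgctcggCCTCTCggcagccatg
Snhg8 (chr3:123508322-123508351, minus strand): gcaccgttcagaagtCTCTTTggctgcgat
Snhg11 (chr2:158375698-158375727, plus strand): cgcactgcggcactcactcacgcactcagc
The run was 8 bases long in Snhg12, 6 in Snhg7, Snhg8 and the downstream start of Gas5, and 5 in Snhg3 and Snhg5. Counted from the annotated start, it began at position 9 in Snhg5, 2 in Snhg3 and 0 in Snhg8. In Snhg12 it began at −2, and in Snhg7 and the downstream start of Gas5 at −1. The other start of Gas5, Snhg1 and Snhg11 held no run of that length. Such a run was found at 6 of 9 host starts (66.7%), on the strand of the gene, and at 10093 of 32851 starts of all genes in the table (30.7%). Snhg4 and Snhg6 had no entry.

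By mean deposited FPKM the host genes lay from percentile 52.1 (Snhg11) to percentile 97.2 (Snhg1) of the genes tested, with Snhg7 at percentile 53.0. Snhg1 led with a mean of 175 FPKM over the 6 samples (140 to 216), followed by Snhg3 at 108 (80.0 to 144), Snhg6 at 97.0 (74.2 to 156), Gas5 at 84.0 (48.5 to 158), Snhg5 at 83.7 (54.3 to 116) and Snhg12 at 67.8 (45.6 to 90.4). Snhg8 at 32.3 (22.6 to 38.6) and Snhg4 at 23.4 (17.8 to 33.2) were lower, and Snhg7 at 10.6 (5.78 to 14.8) and Snhg11 at 10.3 (5.74 to 18.9) were lowest. Snhg1 was above Snhg3, Snhg12 above Snhg8, Snhg8 above Snhg4 and Snhg4 above Snhg7 in 6 of 6 samples. From Snhg3 down to Snhg12 each gene exceeded its neighbour in 2 to 4 samples, as did Snhg7 and Snhg11 in 2, and these neighbours cannot be ordered beyond the spread between samples. For 7 of the 10 genes the deposited FPKM lay more than 1.1 times above the midpoint of its own deposited interval in every sample, by 1.85 to 1.98 times in Snhg6, 1.75 to 1.90 times in Snhg3 and 1.66 to 1.76 times in Snhg1. The value lay above the upper bound of that interval in all 6 samples of Snhg1, Snhg3, Snhg4, Snhg5, Snhg6 and Snhg12 and in 4 samples of Snhg7, so the printed levels of these genes are outside their own intervals. In Gas5, Snhg8 and Snhg11 the ratio was 0.992 to 1.01 and every value was inside. By the midpoint the means were 103 in Snhg1, 84.5 in Gas5, 60.0 in Snhg3 and 51.0 FPKM in Snhg6. Gas5 was above Snhg1 in 2 and above Snhg3 and Snhg5 in 4 of 6 samples on that scale, so these neighbours are not ordered beyond the spread either. Snhg12 was above Snhg8 in 5 of 6 samples by the midpoint. Snhg1 stayed above Snhg3, Snhg8 above Snhg4 and Snhg4 above Snhg7 in 6 of 6.

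**Figure D1:**
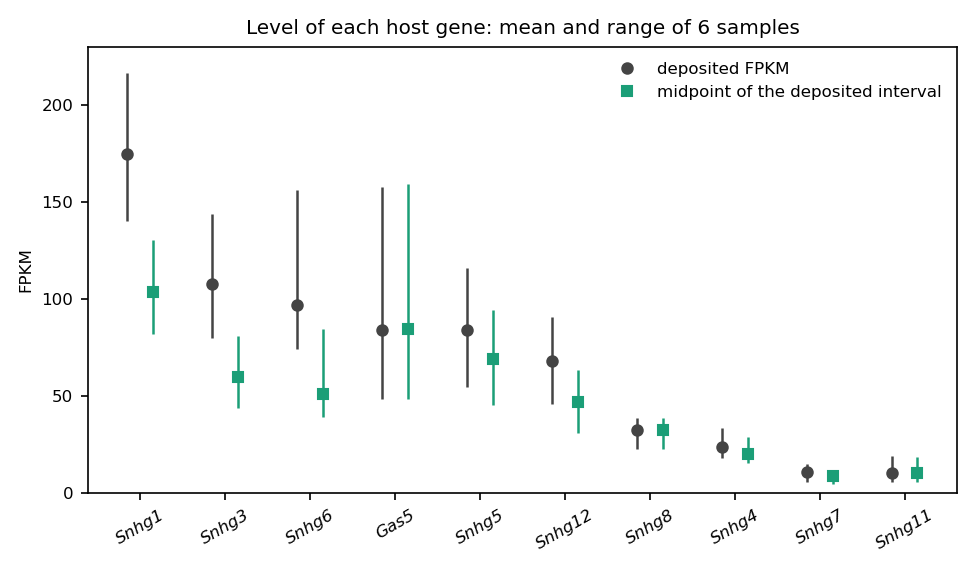
Level of each host gene, in FPKM, as the mean (marker) and the range (line) of the 6 samples, for the deposited FPKM (grey circles) and the midpoint of the deposited interval (green squares). Snhg1 has the highest mean on both scales, and the means of Snhg3 and Snhg6 lie above that of Gas5 on the deposited scale and below it by the midpoint, with ranges that overlap.

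Under tamoxifen none of the 10 host genes passed the test, and in all 10 the values of both groups overlapped (all genes without overlap 3.09% higher and 5.4% lower with tamoxifen). Without a block limma called 4 of 12997 genes (0.0308%), 3 higher (0.0231%) and 1 lower (0.00769%). With a block for replicate number 1350 were called (10.4%), 4.33% higher and 6.06% lower, and again 0 of the 10 host genes. At an unadjusted p under 0.05 limma gave 0 of the 10 without the block, where 4.79% of all genes passed, and 3 with it, where 29.8% did. Median log2 fold change was 0.091 over the host genes and −0.019 over all genes tested.

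Among the box C/D hosts, Gas5, an RNA that accumulates in growth-arrested cells, was at 63.8, 158 and 50.4 FPKM in untreated replicates 1 to 3 and at 48.5, 130 and 53.0 FPKM in tamoxifen replicates 1 to 3. The tamoxifen sample was higher in 1 of 3 numbers. Its means were 90.7 ± 58.6 and 77.3 ± 46.1 FPKM (SD, n = 3), a log2 difference of −0.20 (standard error 0.50, adjusted p = 0.999), and the standard error with the block was 0.11 (adjusted p = 0.272). Snhg5 was at 63.9, 114 and 54.3 FPKM untreated and at 81.1, 116 and 73.3 FPKM with tamoxifen, higher with tamoxifen in 3 of 3 numbers. With the block its log2 difference was 0.27 (95% interval 0.017 to 0.52, adjusted p = 0.147). Snhg1 was at 173, 190 and 140 FPKM untreated and 216, 182 and 147 FPKM with tamoxifen, and Snhg6 at 98.2, 74.2 and 92.8 FPKM and 156, 83.1 and 77.7 FPKM. Both were higher with tamoxifen in 2 of 3 numbers, with log2 differences of 0.11 and 0.19, and their intervals with the block ran from −0.13 to 0.36 and from −0.18 to 0.57.

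Among the hosts of box H/ACA snoRNAs, Snhg8 had the largest positive difference of the 10. It was at 28.0, 34.5 and 22.6 FPKM in the untreated samples and at 38.6, 36.9 and 33.0 FPKM in the tamoxifen samples. Tamoxifen was higher in 3 of 3 numbers, by ratios of 1.38, 1.07 and 1.46, while the lowest tamoxifen value lay below the highest untreated one. Group means were 28.4 ± 6.0 and 36.2 ± 2.9 FPKM (SD, n = 3), and the log2 difference of 0.37 (95% interval with the block 0.10 to 0.63) reached an adjusted p of 0.999 without the block and 0.0803 with it. Snhg11, which is best known from neurons, had the largest negative one. It was at 7.44, 18.9 and 7.86 FPKM untreated and 5.74, 14.9 and 7.10 FPKM with tamoxifen, lower with tamoxifen in 3 of 3 numbers, and its log2 difference was −0.29 (95% interval with the block −0.54 to −0.033, adjusted p = 0.130). Snhg3, Snhg4 and Snhg7 differed by 0.016, −0.033 and 0.070 on the log2 scale, and the widest of their intervals with the block, that of Snhg3, ran from −0.40 to 0.44. Snhg12, the host of both kinds, was at 68.3, 75.9 and 45.6 FPKM untreated and 90.4, 79.8 and 46.6 FPKM with tamoxifen. It was higher with tamoxifen in 3 of 3 numbers, with a log2 difference of 0.17 (95% interval with the block −0.077 to 0.41, adjusted p = 0.316). A p that misses the threshold does not show that the level was the same.

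**Figure D2:**
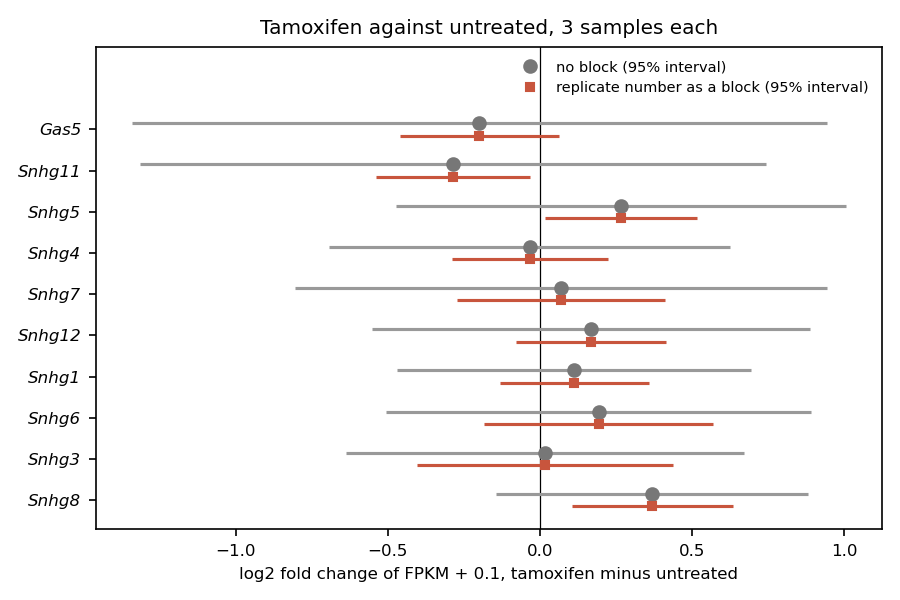
Log2 fold change of FPKM + 0.1, tamoxifen minus untreated, for each host gene (3 samples a group), with 95% intervals without (grey) and with (red) a block for replicate number. All grey intervals cross 0, and with the block those of Snhg5, Snhg8 and Snhg11 do not, although 0 of 10 passed after adjustment over all genes.

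Between replicate numbers, each of which holds 1 untreated and 1 tamoxifen sample, most host genes differed, as did most genes. By the F test of replicate number, 8 of the 10 were called, beside 62.8% of all genes tested, and the exceptions were Snhg3 (adjusted p = 0.163) and Snhg8 (adjusted p = 0.0902). Number 2 was higher than number 1 in 4 host genes (all genes 22.3%) and lower in 1 (all genes 26.7%). Number 3 was lower than number 1 in 3 (all genes 22.2%) and lower than number 2 in 6 (all genes 13.6%), and it was higher in 0 in both comparisons (all genes 20.7% and 10.9%). These counts depend on the scaling. Under TPM number 2 was higher than number 1 in 1 host gene (all genes 2.8%) and lower in 5 (all genes 57%), and with loci under 300 bp left out before scaling it was higher in 6 (all genes 37.3%) and lower in 0 (all genes 10%). Number 3 was lower than number 2 in 2 host genes under TPM (all genes 2.17%) and higher in Snhg6 (all genes 36.1%), and lower in 8 without the short loci (all genes 15.4%). The median difference of number 2 minus number 3 was 0.76 on the log2 scale over the host genes and −0.094 over all genes tested.

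A first pattern, highest in number 2 in both groups, was seen in Gas5, Snhg11, Snhg5 and Snhg4, which makes 4 of 10 beside 20.4% of all genes. With Snhg6, the same number was highest in both groups in 5 of 10, beside 76.4% of all genes. In Gas5 number 2 exceeded number 1 by 2.48 times in the untreated and 2.69 times in the tamoxifen samples, and number 3 by 3.13 and 2.46 times. The log2 difference from number 1 was 1.37 (standard error 0.14, adjusted p = 0.00116) and that from number 3 was 1.47 (adjusted p = 0.00534), at percentiles 96.7 and 99.2 of all genes. Numbers 1 and 3 differed by −0.11 (adjusted p = 0.557). Snhg11, with Snhg7 the least abundant of the 10, followed the same course: number 2 was 2.54 and 2.59 times number 1, a log2 difference of 1.35 (standard error 0.13, adjusted p = 0.00115), and 2.40 and 2.09 times number 3. In Snhg5 number 2 was above number 1 by 0.68 and above number 3 by 0.86 on the log2 scale (adjusted p = 0.00520 and 0.00830). Snhg4 was at 20.9, 33.2 and 17.8 FPKM untreated and 23.2, 27.8 and 17.9 FPKM with tamoxifen, with differences of 0.46 and 0.77 (adjusted p = 0.0242 and 0.0113).

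A second pattern, in Snhg7, Snhg12 and Snhg1, was a low level in number 3 with numbers 1 and 2 close together as deposited. Snhg4, Snhg5 and Snhg8 were also lowest in number 3 in both groups. In Snhg8 number 2 minus number 1 was 0.12 and number 3 minus number 2 was −0.38, neither past the threshold. The share of all genes lowest in number 3 in both groups was not computed. Snhg7 was at 10.9, 12.4 and 7.05 FPKM untreated and 14.8, 12.9 and 5.78 FPKM with tamoxifen, and number 3 lay 0.98 below number 1 and 0.97 below number 2 on the log2 scale (adjusted p = 0.00548 and 0.0122). In Snhg12 these differences were 0.77 and 0.75 (adjusted p = 0.00418 and 0.0106). In Snhg1 number 3 was 0.43 below number 1 (adjusted p = 0.0314) and 0.37 below number 2 (adjusted p = 0.0693). Number 2 minus number 1 was −0.010 in Snhg7, −0.014 in Snhg12 and −0.054 in Snhg1, and under TPM it was −0.76, −0.77 and −0.81 (adjusted p = 0.0120, 0.00222 and 0.000520), beside a median of −0.79 over all genes. Snhg6 stood apart as the member that was highest in number 1 in both groups, with number 2 lower by 0.66 on the log2 scale (adjusted p = 0.0278). Snhg3 was highest in number 2 in the untreated samples (80.0, 144 and 99.7 FPKM) and in number 1 in the tamoxifen samples (124, 115 and 83.4 FPKM).

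**Figure D3:**
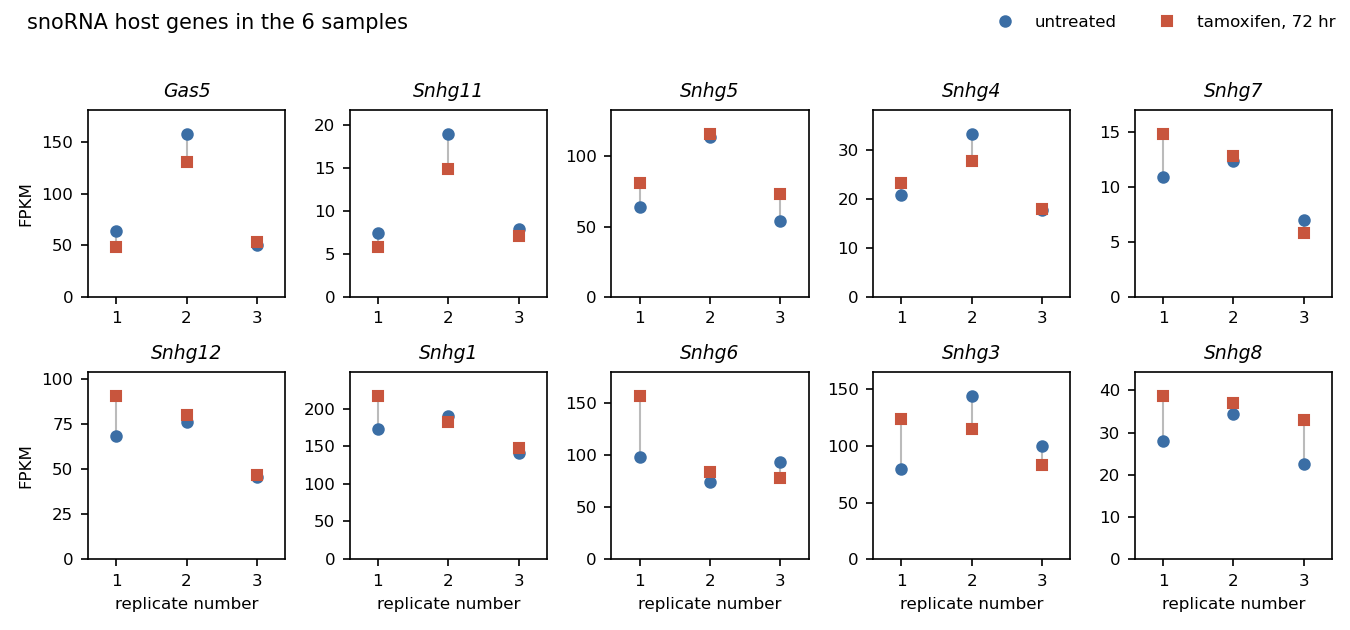
FPKM of each host gene against replicate number, with untreated samples as blue circles, tamoxifen samples as red squares and a grey line joining the 2 samples of a number. Gas5, Snhg11, Snhg5 and Snhg4 are highest in number 2 in both groups. Snhg7, Snhg12, Snhg1, Snhg8, Snhg5 and Snhg4 are lowest in number 3 in both.

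These calls depend on single samples in part of the genes. Gas5, Snhg5, Snhg7, Snhg11 and Snhg12 were called by the F test whichever 1 of the 6 samples was left out. Snhg4 was not called without untreated replicate 2 (range over numbers 0.60). Snhg1 was not called without untreated replicate 2 (0.43), untreated replicate 3 (0.46), tamoxifen replicate 2 (0.50) or tamoxifen replicate 3 (0.39), nor Snhg6 without untreated replicate 2 (0.68), tamoxifen replicate 1 (0.30) or tamoxifen replicate 2 (0.64). Without untreated replicate 1 or tamoxifen replicate 1, Snhg3 (0.59 and 0.83) and Snhg8 (0.38 in both) were called as well. With no filter on low values 0 of the 10 were called, and 3 of 23363 genes.

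Scaling to TPM moved these differences for all genes together, whereas quantile normalization moved the host genes by different amounts. When each sample was scaled to TPM, short loci included, the median difference of number 2 minus number 1 over all genes went from −0.054 to −0.79, and number 2 minus number 1 became negative in Snhg3, Snhg4, Snhg5 and Snhg8 while it was 0.61 in Gas5 (adjusted p = 0.0149) and 0.60 in Snhg11, where the call was lost (adjusted p = 0.0531). With loci under 300 bp left out before scaling, that median was 0.28. Relative to the median of all genes, number 2 minus number 1 was 1.42 in Gas5 as deposited and 1.41 to 1.68 under the other 3 scalings, 1.40 and 1.39 to 1.41 in Snhg11, 0.73 and 0.72 to 1.04 in Snhg5, 0.52 and 0.51 to 0.65 in Snhg4, and −0.60 and −0.26 to −0.62 in Snhg6. In Snhg7 it was 0.044 and 0.034 to 0.068, in Snhg12 0.040 and 0.026 to 0.34, and in Snhg1 −7.2e-05 and −0.015 to 0.38. For Snhg3 it was 0.42 and 0.41 to 0.76, and for Snhg8 0.17 and 0.16 to 0.35. The upper ends in Snhg12, Snhg1, Snhg3 and Snhg8 came from quantile normalization, where the median of all genes was −0.073.

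**Figure D4:**
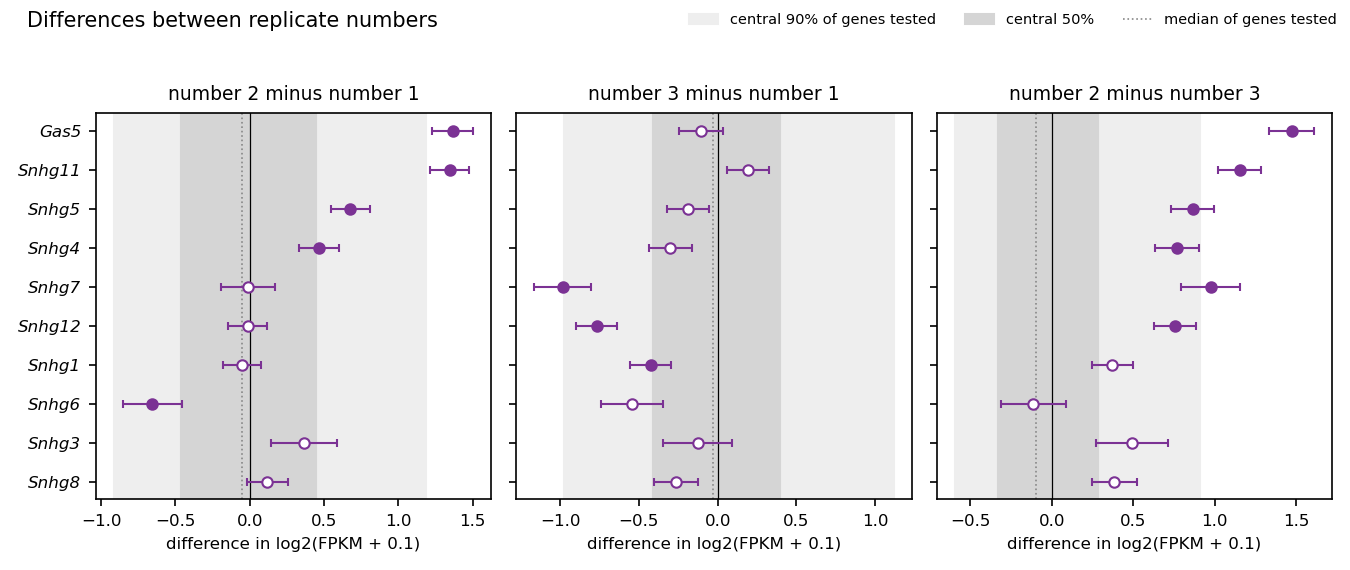
Differences in log2(FPKM + 0.1) between replicate numbers for each host gene, with standard errors, and filled markers where the adjusted p is under 0.05. Dark and light grey bands hold the central 50% and 90% of all genes tested, the dotted line their median. Gas5 and Snhg11 lie outside the light band in number 2 minus number 1, and both, with Snhg7, lie outside it in number 2 minus number 3.

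Other measures moved with replicate number too. Summed FPKM of the 10 feeder fibroblast markers was 38.1, 105 and 81.3 in the untreated samples and 46.6, 102 and 77.4 in the tamoxifen samples, in the order of the numbers. Of the 9 that were tested, 8 were higher in number 2 (all genes 22.3%) and 8 in number 3 (all genes 20.7%) than in number 1, among them Dcn, a proteoglycan of connective tissue, by 1.84 and 1.83, and the mesenchymal factor Prrx1 by 1.44 and 2.32. Gas5 and Snhg11 differed between numbers 3 and 1 by −0.11 and 0.19 as deposited, neither past the threshold. With loci under 300 bp left out before scaling, these differences were 0.14 (adjusted p = 0.447) and 0.44 (adjusted p = 0.0397). ESC markers were called by the F test in 4 of 8 (all genes 62.8%). Pou5f1 was lower in number 2 than in number 1 by 0.86, Dppa5a by 0.82 and Zfp42 by 0.56, and Tdgf1 was higher by 0.80. The part of these cells and of the short loci in the host gene differences was not tested. In bulk RNA, fewer cells of a type and less RNA per cell cannot be told apart.

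Genes that share known biology with the hosts were read from the same models. Counts over these lists, and over the markers above, were made on the values as deposited and not repeated under the other scalings. The share of all genes lower in number 2 than in number 1 was 57% under TPM and 10% without the short loci. The 67 other genes whose locus holds a snoRNA row include many ribosomal protein genes. Some also belong to the lists of translation genes and of snoRNA-packaging proteins below, so these sets overlap. Of the 67, 64 were tested, and 54 were called by the F test (all genes 62.8%). In number 2 against number 1, 33 were lower (all genes 26.7%) and 10 higher (all genes 22.3%), with a median of −0.46, beside 0.24 in the 10 host genes. Rc3h2, an RNA-binding ubiquitin ligase, was higher in number 2 by 1.34. With the block, 2 of the 64 were called for tamoxifen, a smaller share than the 10.4% of all genes, 2410006H16Rik at a log2 difference of 0.42 (adjusted p = 0.0403) and Rc3h2 at −0.58 (adjusted p = 0.0170). AI450353 had the widest range over numbers of this list, 5.11 on the log2 scale, a size that the pseudocount sets since this gene is listed at 0 in 3 of the 6 samples.

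TOP-containing genes of translation outside the ribosomal proteins, 15 in all, were called by the F test in 14 (all genes 62.8%), lower in number 2 than in number 1 in 13 (all genes 26.7%) and higher in 0, with a median of −0.76. Translation elongation factor subunit Eef1d was lower by 0.97, Naca by 0.90, Eif3f, a subunit of an initiation factor, by 0.88 and Eef1a1 by 0.82. None of these 15 was called for tamoxifen, by limma without the block or with it. Of the 6 host genes with a pyrimidine run near an annotated start, Gas5 and Snhg5 were higher in number 2 than in number 1 as deposited (all genes 22.3%). Snhg3 (0.37), Snhg7 (−0.010), Snhg8 (0.12) and Snhg12 (−0.014) did not pass that test. Under TPM Gas5 stayed higher (0.61), and Snhg5 (−0.079) and Snhg3 (−0.39) did not pass. Snhg7 (−0.76), Snhg8 (−0.63) and Snhg12 (−0.77) were called lower under TPM (all genes 57%). With loci under 300 bp left out before scaling, Gas5 (1.71), Snhg5 (1.02), Snhg3 (0.71) and Snhg8 (0.46) were called higher (all genes 37.3%). Gas5 held the run at its downstream start only, and in Snhg5 it began at position 9 from the start.

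The proteins that package snoRNAs and assemble the particles (15 of 16 listed were tested) were lower in number 2 than in number 1 in 11 (all genes 26.7%) and higher in 1 (all genes 22.3%), with 14 called by the F test (all genes 62.8%). Ruvbl1 and Ruvbl2, the paired ATPases of the assembly complex, were lower by 0.76 and 0.84, Pih1d1 by 0.82 and Nufip1 by 0.74. Ruvbl1 was the single one of the 15 called for tamoxifen with the block (all genes 10.4%), at 0.58 (adjusted p = 0.0117; 0.999 without it). Of 15 factors of nonsense-mediated decay, 9 were called by the F test, a share near the 62.8% of all genes, with 5 lower (all genes 26.7%) and 2 higher (all genes 22.3%) in number 2 than in number 1, and 0 for tamoxifen in limma without or with the block. Smg1, the kinase that phosphorylates UPF1, was higher by 0.63, and Rbm8a, a core subunit of the exon junction complex, Smg9 and Upf3a were lower by 0.81, 0.69 and 0.62.

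The genes whose values ran most like the mean log2 level of the 10 hosts over the 6 samples were Ptdss2 (Pearson r = 0.997), Cd9 (0.994), 8430419L09Rik (0.994), Creld2 (0.991) and Tmem9 (0.988). Cd9, a tetraspanin of the cell surface, was at 134, 237 and 101 FPKM untreated and at 164, 222 and 109 FPKM with tamoxifen. With 6 samples and 12997 genes searched, these are a description of the closest profiles.

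The tables hold 114 rows named as snoRNAs, and 11 of them lie inside 7 of the host genes, with none inside Snhg3, Snhg5 or Snhg11. Snord47, Snora61 and Snord87 switched between 0 and very high values from sample to sample. Snord47, in Gas5, was at 7288, 0 and 0 FPKM in untreated replicates 1 to 3 and at 12585, 10046 and 0 FPKM in the tamoxifen replicates. Snora61, in Snhg12, was at 0, 15876 and 0 FPKM and at 21194, 16368 and 0 FPKM. Snord87, in Snhg6, was at 0, 2525 and 3561 FPKM and at 0, 2881 and 0 FPKM. Of the other 8 rows, 6 ranged up to at most 224 FPKM and 2 were at 0 throughout, and the host genes themselves varied by at most 3.29 times between samples.

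Of the 11 rows, 7 mixed 0 with values above 0, Snora24 (in Snhg8) and Snord99 (in Snhg12) were listed at 0 in all 6 samples, and Snord22 and Snora74a were above 0 in every sample. In Snora24 all 6 entries carry a status of low data. The highest 9 of the 66 values, 2525 to 21194 FPKM, all came from Snord47, Snord87 and Snora61. Their rows are loci of 65, 74 and 62 bp, shorter than the 77, 87 and 130 bp of the annotated snoRNAs, and the upper bound of the deposited interval was at most 5.27 FPKM. A length-scaled value over so short a locus, in a library of polyadenylated RNA, was not taken as a measure of the snoRNA, and no fold is given for these rows. Snora16a, the other Snhg12 row printed above, was at 8.50, 27.9 and 0 FPKM untreated and 0, 61.7 and 0 FPKM with tamoxifen. Outside the host genes 47 of the other 103 rows also mixed 0 and higher values, and 51 were at 0 throughout.

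Snord22, in Snhg1, was above 0 throughout, but its FPKM lay above its own deposited interval in 6 of 6 samples, as in the rows just set aside: the upper bound was at most 9.14 FPKM and the midpoint 2.78 to 5.67 FPKM. Its values are given with that limit. It was at 130, 224 and 217 FPKM untreated and at 74.3, 143 and 143 FPKM with tamoxifen, lower with tamoxifen in 3 of 3 numbers, and the groups overlapped. Its log2 difference of −0.69 had an adjusted p of 0.999 without the block and 0.00762 with it (standard error 0.092), the one call among the 8 snoRNA rows tested, a share near the 10.4% of all genes. By the midpoint of the interval, an alternative chosen after the data were seen, the difference with the block was −0.46 (adjusted p = 0.0403). Snhg1 differed by 0.11 in the same fit. Snord22 was also lower in number 1 than in number 2 by 0.86 (adjusted p = 0.00164), where Snhg1 differed by −0.054. In both annotated Snhg1 transcripts Snord22 overlaps an exon, so its reads cannot be told apart from those of Snhg1, and whether the row measures the snoRNA or a part of the host RNA was not tested.

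**Figure D5:**
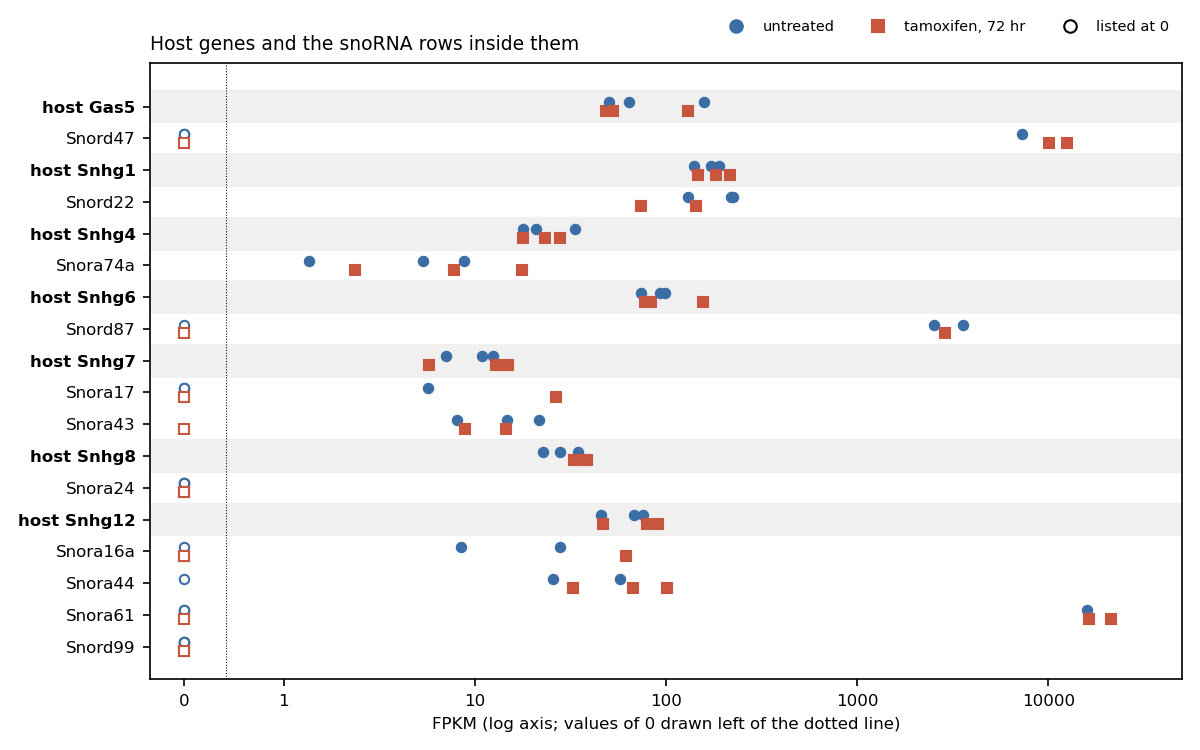
FPKM on a log axis of the 7 host genes that hold a snoRNA row (bold, grey) and of the 11 rows inside them, 1 marker per sample (blue circles untreated, red squares tamoxifen), with values of 0 as open markers left of the dotted line. The hosts stay within a narrow range while Snord47, Snord87 and Snora61 jump between 0 and far higher values.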

How the data were processed

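For 6 samples, directional libraries of polyA+ RNA were sequenced from both ends. The authors aligned reads to mm9 with TopHat2 (0.5, from the submitters' processing notes) and deposited 1 FPKM per gene row and sample, made with Cuffdiff 2.1.1 on refGene models, with an interval and a status. The tables give no read counts, so no counting intervals were computed. Rows of 1 gene name were summed, and 6 names with a failed status in any sample were left out. The 12997 genes with at least 0.5 FPKM in at least 3 samples were fitted in R 4.3.3 by limma 3.58.1 (eBayes with a trend) on log2(FPKM + 0.1), with Benjamini-Hochberg adjustment over all of them and a threshold of 0.05. A fold change on this scale understates that of genes with low values. A second model held replicate number and treatment and gave the blocked treatment differences, an F test of replicate number and its 3 pairwise differences.

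Deviations from the group means correlated at 0.544, 0.605 and 0.506 across genes for samples with the same number, so the numbers given in the labels were taken to pair the samples. For samples with different numbers the correlations were −0.105 to −0.379. Deviations within a group sum to 0, so these negative values follow in part from the positive ones and are no separate support. The methods call the samples of a group biological triplicates, and the labels do not say whether they were separate cultures. The member genes, the gene lists and the tests were chosen with earlier results of these data known. From each list, the text names up to 4 genes with the largest absolute fold change among those called with the block and up to 4 with the largest range over replicate numbers among those called by the F test. A gene that this rule would name is not reported here. Sums and figures were made with numpy 2.4.6, pandas 2.3.3 and matplotlib 3.10.9 under Python 3.11.15. Gene and snoRNA positions follow the tables and GENCODE vM1 on NCBIM37 (mm9). Start site windows come from RefSeq promoters on GRCm38.p6. No lift between builds was made. The alternatives tried were TPM scaling with or without loci under 300 bp, pseudocounts of 0.01 and 1, quantile normalization, the highest row per name, other filters, eBayes without a trend, the block, and leaving out samples. The midpoint of the deposited interval, its fit with the block, and the F test without each sample were added after the data were seen.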

Additional observations from a re-analysis of the deposited data

How the results depend on the processing

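No host gene was called for tamoxifen under any alternative run, with adjusted p from 0.0623 (Snhg8) upward, and the samples limit what could be seen: 3 per group, FPKM without counts. The number of genes called higher and lower, 3 and 1, became 563 and 787 with the replicate block, 558 and 586 with the block and quantile normalization, 1 and 0 without a filter, 0 and 0 at 1 FPKM or more in all 6 samples, 2 and 0 with a pseudocount of 1, and 3 and 2 by the interval midpoint. Other scalings turned the sign of small differences: Snhg4 to 0.068 under TPM, Snhg3 to −0.071 and Snhg7 to −0.018 under TPM without short loci, and Snhg1 to −0.0040 and Snhg3 to −0.075 under quantile normalization with and without the block. Leaving out 1 sample or 1 number gave 0 to 5 higher and 0 to 7 lower genes, and log2 differences of −0.65 to 0.29 (Gas5), −0.021 to 0.26 (Snhg1), −0.29 to 0.25 (Snhg3), −0.22 to 0.23 (Snhg4), 0.049 to 0.58 (Snhg5), −0.13 to 0.42 (Snhg6), −0.19 to 0.48 (Snhg7), 0.22 to 0.52 (Snhg8), −0.69 to 0.15 (Snhg11) and −0.051 to 0.46 (Snhg12). The block changed the call of Snord22 (−0.69, and −0.81 with quantile normalization, −0.46 by midpoint) and of no host gene.

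For replicate number, 8163 genes were called, 3 without a filter and 4168 to 9100 with 1 sample left out. Calls were lost under TPM for Snhg4 (range 0.61) and Snhg5 (0.50), under TPM without short loci for Snhg6 (0.32), under quantile normalization for Snhg6 (0.33), and without a trend for Snhg1 (0.43) and Snhg6 (0.66). Without a filter all 8 calls were lost at unchanged ranges (Gas5 1.47, Snhg1 0.43, Snhg4 0.77, Snhg5 0.86, Snhg6 0.66, Snhg7 0.98, Snhg11 1.35, Snhg12 0.77). Calls were gained by Snhg8 under TPM (0.63), by Snhg3 (0.71) and Snhg8 (0.48) under TPM without short loci, and by Snhg3 (0.49) and Snhg8 (0.38) at 1 FPKM or more in all samples. Ranges with 1 sample left out were 1.37 to 1.68 (Gas5), 0.37 to 0.59 (Snhg1), 0.24 to 0.83 (Snhg3), 0.60 to 0.94 (Snhg4), 0.68 to 1.05 (Snhg5), 0.30 to 1.01 (Snhg6), 0.72 to 1.26 (Snhg7), 0.25 to 0.59 (Snhg8), 1.28 to 1.41 (Snhg11) and 0.66 to 0.94 (Snhg12). The causes were not tested.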
